A study of Mus musculus with 12 samples.

Results

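Sialyltransferases are the enzymes that attach sialic acid to the ends of sugar chains, and 9 of their genes were followed here in salivary tumors of 3 p53 genotypes: St3gal1, St3gal2, St3gal3, St3gal4, St3gal5, St3gal6, St6gal1, St6galnac2 and St6galnac4. Every probe set whose single annotated gene symbol is one of these was taken, which gave 17 of the 22626 probe sets tested, for 9 of 12393 genes with a symbol. The members were taken as a gene family, except that St3gal6 was chosen by its measured level, which was high in tumors with wild-type p53, so its values against those tumors are given as a description, without a test. All 12 tumors arose in the salivary glands of adult mice that carry the MMTV-ras transgene, which drives activated ras from the mouse mammary tumor virus promoter. The groups were 4 MMTV-ras/p53+/+ tumors (WT), 4 MMTV-ras/p53-/- tumors (KO) and 4 MMTV-ras/p53R172H/R172H tumors (MT), the last being homozygous for the R172H change in the DNA-binding domain of p53. No group was given a treatment. Exact ages, and the gland from which each tumor came, are not given in the sources used here, nor do they say that each tumor came from a different mouse, so the spread within a group may hold less than the spread between animals. One Affymetrix mouse GeneChip array was hybridized per tumor, and all levels below are log2 values.

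Sialyltransferases work in the Golgi, where they transfer sialic acid from its activated form, CMP-sialic acid, to a sugar at the end of a glycan. The ST3Gal enzymes add it to galactose, ST6Gal1 adds it to galactose of N-glycans by a different linkage, and the ST6GalNAc enzymes add it to N-acetylgalactosamine of mucin-type O-glycans or gangliosides. In salivary glands sialic acid gives the secreted mucins their negative charge, and on leukocytes and tumor cells sialylated and fucosylated chains are the ligands of selectins.

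St3gal6 lies on chromosome 16 (GRCm38.p6), on the minus strand, and RefSeq gives it 2 start sites with different upstream sequence. The 250 bases before each start are shown because the level of this gene separated the WT tumors from the rest and because these windows show how unlike its 2 starts are. CG dinucleotides, the sites of DNA methylation, are in capitals. 
St3gal6, chr16:58523427-58523676: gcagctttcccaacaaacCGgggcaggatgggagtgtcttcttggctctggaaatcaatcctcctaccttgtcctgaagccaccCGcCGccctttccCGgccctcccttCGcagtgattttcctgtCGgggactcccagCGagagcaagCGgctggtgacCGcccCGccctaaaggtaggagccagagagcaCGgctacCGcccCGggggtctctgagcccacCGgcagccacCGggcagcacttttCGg
St3gal6, chr16:58524254-58524503: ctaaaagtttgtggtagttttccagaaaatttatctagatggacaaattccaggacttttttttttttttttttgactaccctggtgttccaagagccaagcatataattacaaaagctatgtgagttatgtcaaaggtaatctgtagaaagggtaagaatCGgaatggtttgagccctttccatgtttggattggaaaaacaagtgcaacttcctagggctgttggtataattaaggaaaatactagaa
The window at chr16:58523427-58523676 held 16 CG dinucleotides and 64.4% G or C bases, and that at chr16:58524254-58524503 held 1 and 34.8%, while the medians over all 32851 windows were 6 and 52.4%. Of 9 such windows, which cover 6 of the 9 genes, 0 held an exact match to the p53 half-site consensus, which was searched on both strands and was present in 7.13% of all windows. The array does not tell which start was in use.

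The arrays carried a few features that touch the results. Trp53 itself, at probe sets 1426538_a_at and 1427739_a_at, was lower in all 4 KO tumors (5.85 to 6.36 and 6.37 to 6.89) than in any WT (7.38 to 8.01 and 8.02 to 8.53) or MT tumor (7.88 to 9.03 and 8.18 to 9.29). Poly-A control probe sets averaged 10.38 to 10.56 in MT1 to MT3, against 3.98 to 4.23 in the remaining 9 arrays. No source names this split as a batch, and a difference of MT from WT or KO within it rests on MT4 alone. Markers of luminal epithelium averaged 9.46, 11.05, 9.84 and 10.74 in WT1 to WT4, 10.76 to 11.22 in KO and 10.46 to 11.06 in MT tumors, those of B and plasma cells 8.60 in WT1 against 5.29 to 5.98 in the other tumors, and those of granular ducts 8.88 in KO3 against 4.55 to 5.14. In these bulk samples, fewer cells of a type and less RNA per cell cannot be told apart.

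St3gal6, whose enzyme adds sialic acid to galactose of the chain end from which the selectin ligand sialyl Lewis X is built, was high in the WT tumors and low in nearly all others. At probe set 1449078_at it measured 10.33, 7.73, 9.04 and 9.04 in WT1 to WT4, 5.75, 4.57, 4.35 and 7.20 in KO1 to KO4, and 5.28, 4.93, 4.88 and 4.20 in MT1 to MT4. At probe set 1449079_s_at the values were 10.13, 7.49, 8.95 and 8.87 in WT, 5.91, 5.15, 5.27 and 5.97 in KO, and 5.95, 5.70, 5.89 and 4.85 in MT tumors. Neither probe set overlapped between WT and the other genotypes, but the gap was small at 1449078_at, where WT2 (7.73) lay just above KO4 (7.20). These are the values that led to the choice of the gene. KO4 stood out among the tumors without wild-type p53 at 1449078_at and did not at 1449079_s_at, where it measured 5.97 beside 5.91 in KO1 and 5.95 in MT1.

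**Figure D1:**
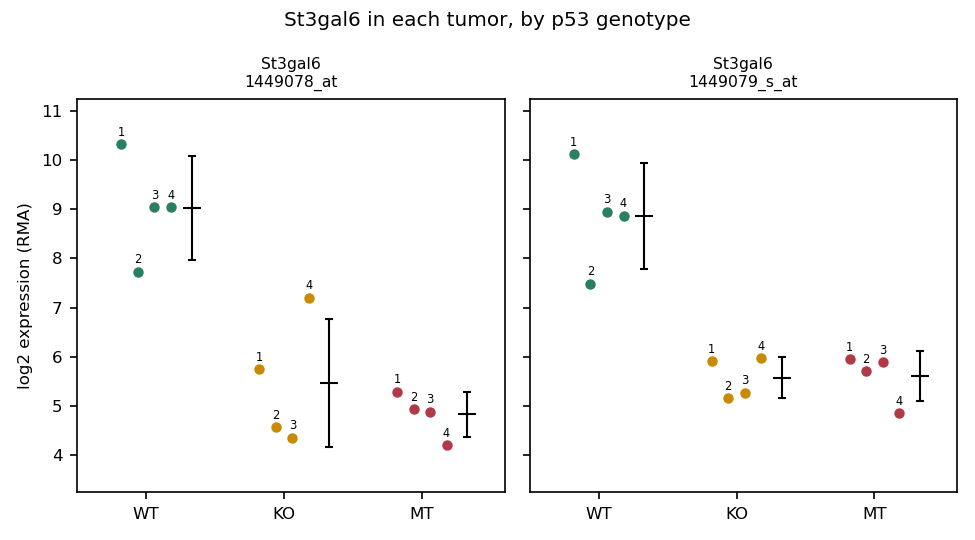
Log2 expression of St3gal6 at its 2 probe sets (vertical axis) in each tumor, with its number in the genotype beside each point. Horizontal bars are means and vertical lines the SD (n = 4). The WT tumors sit between 7.49 and 10.33, above every KO and MT tumor at the same probe set.

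Averaged over both probe sets, St3gal6 averaged 8.95 ± 1.07 (SD, n = 4) in the WT tumors, against 5.52 ± 0.85 in the KO and 5.21 ± 0.47 in the MT tumors. The WT minus KO difference was 3.43, a ratio of 10.8 on the linear scale, and the MT minus WT difference was -3.74, a ratio of 13.3 between WT and MT. The order of the tumors from the top was WT1 (10.23), WT3 (8.998), WT4 (8.96), WT2 (7.61), KO4 (6.59), KO1 (5.83) and MT1 (5.62), and the 5 other tumors lay between 4.53 and 5.38. With single tumors left out, the WT minus KO difference ran from 3.00 without WT1 to 3.87 without WT2, and the MT minus WT difference from -3.31 without WT1 to -4.18 without WT2. Within the 9 tumors with low poly-A controls, the MT minus WT difference was -4.84 at 1449078_at and -4.01 at 1449079_s_at.

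The choice of St3gal6 did not use the comparison of MT with KO tumors, and there its levels overlapped. The MT minus KO difference was -0.65 at 1449078_at (SE 0.64, 95% interval -2.04 to 0.75, limma adjusted p = 0.815) and 0.02 at 1449079_s_at (SE 0.47, interval -0.996 to 1.04, adjusted p = 0.994). The mean of both probe sets turned from -0.31 to 0.04 when KO4 was left out.

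Markers of salivary acini and demilunes, the secreting cells of the glands, were higher in the WT tumors than in most others. St3gal6 was chosen for its high level there, so any list higher in WT tumors shares this difference with it. The acinar mean over 16 probe sets of 13 genes, of 16 genes on the list, was 9.32 to 10.51 in WT, 7.87 to 9.36 in KO and 8.05 to 8.72 in MT tumors. Of the 16 probe sets, 2 were higher in WT than in KO tumors, Prpmp5 (4.91, limma adjusted p = 0.00675) and Dcpp1 (3.16, adjusted p = 0.0183), which encode secreted proteins of the salivary glands, and 0 were lower. Over all probe sets 2.64% were called higher. At an unadjusted p under 0.05 there were 8 of the 16, against 23.9% of all. The median difference of the list was 1.32 against 0.02 over all probe sets. Between MT and WT tumors 0 of the 16 were called and 8 had an unadjusted p under 0.05, against 19.4% of all. The median MT minus WT difference was -1.66, against -0.01 over all. WT2 and KO3 were alike in the acinar mean, at 9.32 and 9.36, while their St3gal6 means were 7.61 and 4.81. KO4, the highest of the KO tumors in St3gal6, was at 8.48 in the acinar mean. KO3, the highest of the KO tumors in the acinar mean, was the lowest of them in St3gal6. It was also the tumor with granular duct markers at 8.88, against 4.55 to 5.14 in the others, and their part here was not tested.

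**Figure D2:**
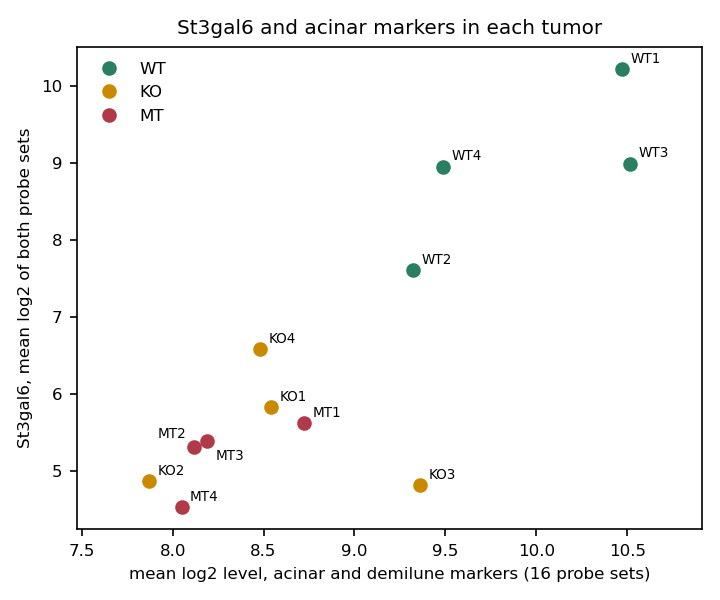
Mean log2 level of the acinar and demilune markers (16 probe sets, horizontal axis) against the mean log2 level of both St3gal6 probe sets (vertical axis), 1 point per tumor, colored by genotype. The WT tumors lie to the upper right, and KO3, at 9.36 and 4.81, lies well below WT2, at 9.32 and 7.61. KO3 is also the tumor with granular duct markers at 8.88.

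Other marker lists held called probe sets too, where 2.64% of all probe sets were called higher in WT than in KO tumors. Of 13 macrophage probe sets 2 were higher (C1qb and Cd68), of 10 endothelial probe sets 3 (Pecam1, Emcn and Vwf) and of 10 T and NK cell probe sets 1 (Cd4). Between MT and WT tumors 1 macrophage probe set was lower in MT tumors, C1qb (-0.92, limma adjusted p = 0.0246), where 0.367% of all probe sets were called. The list means were 8.82 to 9.44, 8.42 to 8.98 and 8.24 to 9.32 in WT, KO and MT tumors for macrophages, and 5.88 to 6.17, 5.49 to 5.91 and 5.80 to 5.996 for endothelium. The mean of the T and NK cell list was 7.17 in WT1 and 5.43 to 5.93 in the other 11 tumors. Probe sets for 18S ribosomal RNA averaged 8.90 to 9.33 in WT1 to WT3 but 7.51 in WT4, while the KO tumors ran from 7.36 to 8.03, MT1 to MT3 from 6.41 to 6.59, and MT4 was at 7.66. WT4 had St3gal6 at 8.96 with its 18S level within the KO range. WT1 and WT3, the lowest of the 12 tumors in luminal epithelium markers (9.46 and 9.84), had St3gal6 means of 10.23 and 8.998. WT1 was the highest in St3gal6, but WT3 was hardly above WT4 (8.96), which had luminal markers at 10.74. At 1449078_at WT3 and WT4 both measured 9.04. Of the 15 luminal probe sets 0 were called between WT and KO tumors and 5 had an unadjusted p under 0.05, with a median difference of -0.63. The part of the cell types and of these controls in the St3gal6 levels was not tested.

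St3gal6 was chosen for its high level in WT tumors, so genes near it in profile share that difference through the choice. Profiles over the 12 tumors were compared with the mean of both St3gal6 probe sets. The measure was the root mean square (RMS) difference of log2 values after each profile was centered on its own mean. Among all genes, 5 were nearest to St3gal6 on it. They were Ldb3 (0.72), a muscle Z-disc protein, Thrsp (0.90), a regulator of fatty acid synthesis, Smpdl3a (0.99), a phosphodiesterase, Lpo (1.00), the lactoperoxidase of saliva and a member of the acinar list, and G0s2 (1.05), an inhibitor of triglyceride breakdown. The median of all probe sets was 1.86. Both St3gal6 probe sets differed from each other by 0.62, which is not a distance from their mean and so is no yardstick for the 5 genes. Ldb3 followed the dip in WT2, with 6.997, 4.78, 6.98 and 7.10 in WT1 to WT4, 3.65 to 4.19 in KO and 3.76 to 4.16 in MT tumors. Thrsp dipped in WT2 and WT4, with 9.63, 6.47, 9.24 and 7.32 in WT tumors, and MT3 (6.999) lay above WT2. Smpdl3a was even in WT tumors, at 9.51 to 9.64, and lay at 6.37 to 8.03 in the others.

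The genes beside St3gal6 on chromosome 16, Col8a1 and Dcbld2 on one side and Cpox and Cldnd1 on the other, did not show its pattern. Their WT minus KO differences, over 9 probe sets, ran from -0.74 to 0.49, with limma adjusted p between 0.208 and 0.856. Of the 9, 0 passed in any comparison, where 4.57%, 0.00884% and 0.367% of all probe sets passed (WT with KO, MT with KO, MT with WT). In each comparison 1 of 9 had an unadjusted p under 0.05, against 23.9%, 9.58% and 19.4% of all. Of the other sialyltransferase genes, St6gal1 also lies on chromosome 16, and the rest lie on 7 other chromosomes.

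No sialyltransferase gene passed the test in any comparison in which it was tested, St3gal6 being tested between MT and KO tumors only. Between WT and KO tumors, 0 of 15 probe sets passed, against 4.57% of all probe sets (limma, adjusted p under 0.05). At an unadjusted p under 0.05 there were 5 of 15, against 23.9% of all probe sets. Of these, 1 was higher and 4 were lower in WT tumors, where 13.5% of all probe sets were higher and 10.5% lower. The median difference was -0.06, beside 0.02 over all probe sets. The values of WT and KO tumors did not overlap for 1 of 15, St3gal1, against 14.5% of all probe sets.

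Between MT and KO tumors, 0 of 17 probe sets passed, with 0.00884% called in all, and 2 of 17 had an unadjusted p under 0.05, against 9.58% of all. The median difference was 0.00 (all probe sets 0.02), and 0 of 17 did not overlap, against 4.85% of all probe sets. Between MT and WT tumors 0 of 15 passed, with 0.367% called in all, 4 of 15 had an unadjusted p under 0.05, against 19.4%, and the median was 0.06 (all probe sets -0.01). Here 1 of 15 did not overlap, St3gal2 at 1421890_at, against 10.9% of all. The methods' t-test, adjusted in the same way, called 0 members in each of the 3 comparisons and 0.0442%, 0.0% and 0.0% of all probe sets, and it gave 3, 0 and 2 members an unadjusted p under 0.05.

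**Figure D3:**
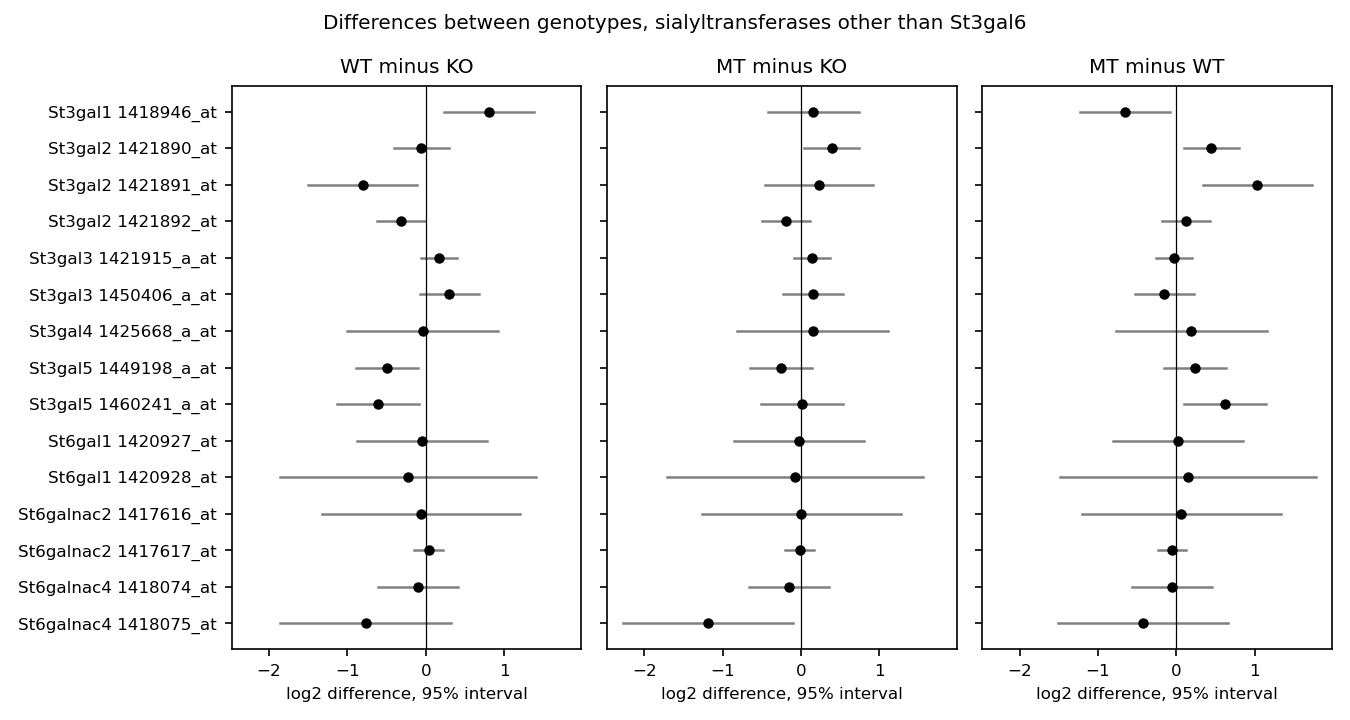
Log2 differences between genotypes (horizontal axis, points) with 95% intervals (lines) for the 15 probe sets of the 8 genes other than St3gal6, from the limma fit over 12 tumors. Intervals run from narrow, as for St6galnac2 at 1417617_at (SE 0.08), to wide, as for St6gal1 at 1420928_at (SE 0.74), and those that exclude 0 belong to St3gal1, St3gal2, St3gal5 and St6galnac4.

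St3gal1 encodes the main enzyme that caps the core disaccharide of mucin-type O-glycans. It measured 6.63, 7.67, 6.67 and 6.15 in WT1 to WT4, 5.75, 6.01, 6.12 and 6.02 in KO1 to KO4, and 6.48, 6.08, 6.005 and 5.95 in MT1 to MT4. All WT tumors lay above all KO tumors, by a margin that rested on WT4 and was small, and WT2 was the highest. The WT minus KO difference was 0.81 (SE 0.26, 95% interval 0.23 to 1.39) with an adjusted p of 0.0964 from limma, which fell to 0.0386 without WT4. Without WT2 the difference was 0.51 (limma adjusted p = 0.118). The MT minus WT difference was -0.65 (SE 0.26, interval -1.23 to -0.07, adjusted p = 0.215), and it was -0.35 without WT2 and -0.83 within the poly-A split.

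St3gal2 encodes an enzyme that acts on the same O-glycan core and on gangliosides, and its 3 probe sets did not move alike. At 1421891_at it measured 5.41, 4.89, 5.85 and 5.42 in WT, 5.70, 5.90, 6.59 and 6.61 in KO, and 6.18, 6.97, 6.85 and 5.71 in MT tumors. At 1421890_at the values were 5.33, 5.73, 5.67 and 5.68 in WT, 5.31, 5.77, 5.84 and 5.72 in KO, and 5.91, 6.36, 6.14 and 5.79 in MT tumors. At 1421892_at they were 5.40, 5.05, 5.25 and 4.95 in WT, 5.22, 5.37, 5.78 and 5.55 in KO, and 5.33, 5.33, 5.32 and 5.17 in MT tumors. WT tumors were lowest in mean at all 3 probe sets, and MT tumors were highest at 1421890_at and 1421891_at and between the others at 1421892_at.

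The MT minus WT difference of St3gal2 was 1.04 at 1421891_at (SE 0.32, interval 0.34 to 1.73, limma adjusted p = 0.130) and 0.45 at 1421890_at (SE 0.16, interval 0.10 to 0.80, adjusted p = 0.173). The WT minus KO difference was -0.81 at 1421891_at (SE 0.32, adjusted p = 0.151) and -0.32 at 1421892_at (SE 0.14, adjusted p = 0.189). Only 1421890_at, of the 3, had an unadjusted p under 0.05 between MT and KO tumors (0.39, SE 0.16, adjusted p = 0.466). MT4 was the lowest MT tumor at all 3 probe sets. The poly-A controls moved with these differences: within the split, the MT minus WT difference was 0.32 at 1421891_at and 0.19 at 1421890_at, and the MT minus KO difference at 1421890_at was 0.13. Their part in the result was not tested.

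St3gal3 and St3gal4 encode enzymes that, like ST3Gal6, sialylate galactose linked to N-acetylglucosamine. St3gal3 varied little, from 5.23 to 5.67 at 1421915_a_at and from 6.48 to 7.39 at 1450406_a_at over the 12 tumors. Its WT minus KO differences were 0.17 (SE 0.11, limma adjusted p = 0.366) and 0.30 (SE 0.17, adjusted p = 0.312).

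St3gal4 measured 9.43, 9.85, 9.43 and 9.50 in WT1 to WT4, 10.71, 8.61, 8.99 and 10.07 in KO1 to KO4, and 9.81, 8.95, 9.61 and 10.60 in MT1 to MT4. WT tumors were close together (SD 0.20), while KO and MT tumors lay on both sides of them (SD 0.96 and 0.68). The group means were 9.55, 9.59 and 9.74, and the WT minus KO difference was -0.04 (SE 0.44, interval -1.004 to 0.92, limma adjusted p = 0.968). The highest levels, in KO1, KO4 and MT4, came from arrays with hybridization controls at 10.04 to 10.15, and those of the other tumors were at 8.88 to 9.72 except in WT1 (10.13), where St3gal4 was 9.43. The part of these controls was not tested.

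St3gal5 encodes the synthase of GM3, the ganglioside from which most others are made. Its mean was lowest in the WT tumors at both probe sets, without a difference that passed the test. At 1460241_a_at it measured 7.20, 8.25, 7.84 and 8.04 in WT, 8.59, 8.35, 8.73 and 8.08 in KO, and 8.59, 8.44, 8.78 and 8.004 in MT tumors. At 1449198_a_at the values were 8.09, 8.87, 8.53 and 8.65 in WT, 8.83, 9.29, 9.13 and 8.85 in KO, and 8.82, 8.86, 8.95 and 8.45 in MT tumors. WT1 was the lowest tumor at both, and the groups overlapped through WT2, the highest WT tumor at both. The WT minus KO difference was -0.60 at 1460241_a_at (SE 0.24, interval -1.13 to -0.08, limma adjusted p = 0.153) and -0.49 at 1449198_a_at (SE 0.18, interval -0.89 to -0.10, adjusted p = 0.127). Between MT and WT tumors it was 0.62 at 1460241_a_at (SE 0.24, interval 0.10 to 1.14, adjusted p = 0.200), and 0.24 at 1449198_a_at (SE 0.18, adjusted p = 0.492). Within the poly-A split these were 0.17 and -0.08. Without WT1 the differences at 1460241_a_at were -0.39 (WT minus KO, limma adjusted p = 0.322) and 0.41 (MT minus WT, adjusted p = 0.402). WT1 and WT3, the lowest tumors at 1460241_a_at, were also the lowest in luminal epithelium markers (9.46 and 9.84, against 10.46 to 11.22 in the other 10), whose part, like that of the poly-A controls, was not tested.

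**Figure D4:**
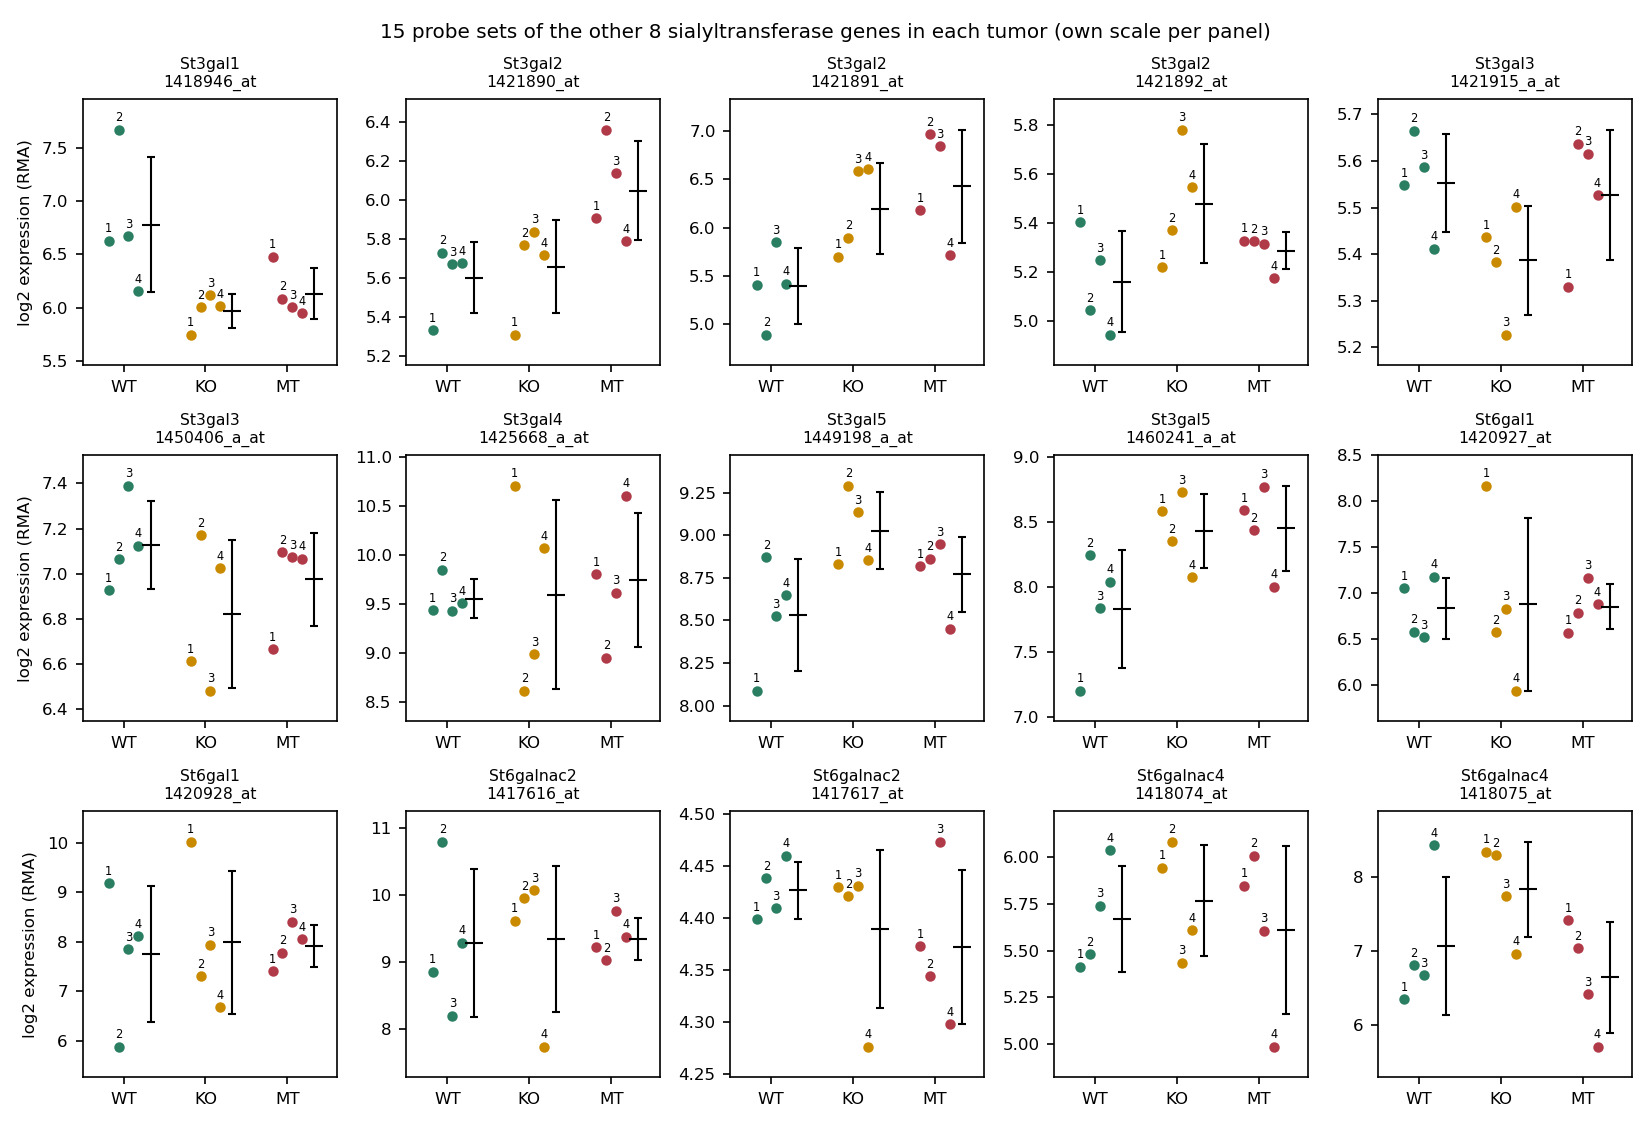
Log2 expression of the 15 probe sets of the 8 genes other than St3gal6 (vertical axes, each panel on its own scale) in each tumor, with its number in the genotype beside each point. Horizontal bars are means and vertical lines the SD (n = 4). Genotypes overlap in most panels, and WT lies apart from KO tumors only for St3gal1, where the lowest WT value is 6.15 and the highest KO value 6.12.

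St6gal1 encodes the enzyme that caps N-glycans of many cell surface and secreted glycoproteins and is prominent in B cells and liver. At 1420928_at it measured 9.19, 5.88, 7.85 and 8.12 in WT, 10.02, 7.30, 7.94 and 6.68 in KO, and 7.41, 7.78, 8.40 and 8.05 in MT tumors. At 1420927_at KO1 was again the highest, at 8.17, and the other tumors lay between 5.94 and 7.18. The spread within WT and KO tumors was far wider at 1420928_at (SD 1.38 and 1.45) than the differences between the means, which were 7.76, 7.99 and 7.91 in WT, KO and MT tumors. The WT minus KO difference was -0.23 with an interval of -1.86 to 1.40 (limma adjusted p = 0.882), so a change of 1 on the log2 scale was not detectable in either direction. WT1, with the highest WT level, had the B and plasma cell markers at 8.60, and KO1, the highest of all, had them at 5.51.

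St6galnac2 encodes an enzyme of mucin-type O-glycans. At 1417616_at it measured 8.85, 10.79, 8.20 and 9.28 in WT, 9.61, 9.95, 10.07 and 7.73 in KO, and 9.22, 9.02, 9.76 and 9.37 in MT tumors, with group means of 9.28, 9.34 and 9.34. WT2 was the highest and KO4 the lowest tumor, and the MT tumors were the closest together (SD 0.31, against 1.10 in WT and 1.09 in KO). The other probe set, 1417617_at, was flat at 4.28 to 4.47 and below the median of its array in all 12 tumors, so the 2 probe sets of the gene disagreed in how far tumors differed.

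St6galnac4 encodes an enzyme that adds a further sialic acid to O-glycans that already carry one. At 1418075_at it measured 6.35, 6.80, 6.67 and 8.43 in WT, 8.34, 8.29, 7.74 and 6.96 in KO, and 7.41, 7.03, 6.41 and 5.71 in MT tumors. WT4 reached the level of the highest KO tumors, and KO4 lay among the MT tumors. The MT minus KO difference was -1.19 (SE 0.50, interval -2.28 to -0.10, limma adjusted p = 0.473), and within the poly-A split, on MT4 alone, it was -2.12 (adjusted p = 0.670). At 1418074_at, which was below the array median in all 12 tumors, the difference was -0.15 (SE 0.23, adjusted p = 0.895).

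In all, 10 of the 17 probe sets, of 7 genes, were above the median of their array in at least 4 arrays. The 7 that were not include the only probe set of St3gal1 and the 3 of St3gal2, so the levels of these genes came from dim probe sets. Both probe sets of St3gal6 passed this filter through the 4 WT tumors, joined at 1449078_at by KO4.

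Genes around the sialyltransferases in sialic acid and glycan metabolism were followed on lists of 88 genes with 145 probe sets, some of them on more than 1 list. Between WT and KO tumors 7 probe sets were higher and 4 lower, 7.59% of the 145 against 4.57% of all probe sets, with 2.64% of all higher and 1.94% lower. At an unadjusted p under 0.05 there were 31 of 145, against 23.9% of all, and the median difference over the lists was 0.04, beside 0.02 for all. Between MT and KO tumors 0 of the 145 passed (limma), against 0.00884% of all, with 16 at an unadjusted p under 0.05, against 9.58%. Between MT and WT tumors 0 passed, against 0.367%, with 20 at an unadjusted p under 0.05, against 19.4%. The methods' t-test called 0 of the 11.

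In the supply of sialic acid, with 8 probe sets of 6 genes, 1 probe set was lower in the WT tumors, that of Gne. It encodes the enzyme that starts sialic acid synthesis and measured 9.66, 11.06, 10.30 and 11.05 in WT, 11.57, 12.34, 11.45 and 11.64 in KO, and 11.97, 11.49, 11.95 and 12.19 in MT tumors, with no overlap of WT with either genotype. The WT minus KO difference was -1.23 (SE 0.31, limma adjusted p = 0.0474), and it no longer passed in 15 of 22 alternative settings. The MT minus WT difference was 1.38 (SE 0.31, adjusted p = 0.0705). In sialic acid breakdown, 1 of 7 probe sets was higher in WT tumors, that of Npl, which encodes the lyase that splits free sialic acid. Npl measured 6.41 to 6.61 in WT, 5.35 to 5.92 in KO and 5.64 to 5.94 in MT tumors, and WT exceeded KO tumors by 0.95 (SE 0.13, limma adjusted p = 0.00798), a call that was lost in 1 of 21 settings. Its probe set was dim and did not pass the filter on dim probe sets, so that setting is not among the 21. Between WT and KO tumors 4 of 8 supply and 2 of 7 breakdown probe sets had an unadjusted p under 0.05, against 23.9% of all. Over all probe sets 1.94% were called lower and 2.64% higher.

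In the lists for the start of O-glycans and for the galactose ends, the called probe sets had lower levels in WT tumors. Of 18 probe sets for the enzymes that start mucin-type chains, 1 was lower and 9 had an unadjusted p under 0.05, and the median difference was -0.60. The called one, Galnt10, measured 7.59 to 8.01 in WT, 8.52 to 9.65 in KO and 7.68 to 8.40 in MT tumors (WT minus KO -1.26, SE 0.24, limma adjusted p = 0.0200). Of 41 probe sets for enzymes that build the galactose ends, 2 were lower, both of Gcnt2, a branching enzyme of such chains (-0.99, SE 0.23, adjusted p = 0.0376, and -0.88, SE 0.16, adjusted p = 0.0181). Of the 41, 5 had an unadjusted p under 0.05, and the median difference of this list was 0.07. Over all probe sets 1.94% were called lower and 23.9% had an unadjusted p under 0.05.

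In the N-glycan and ganglioside lists, the called probe sets had higher levels in WT tumors. Over all probe sets 2.64% were called higher and 23.9% had an unadjusted p under 0.05. At that unadjusted p there were 4 of 10 N-glycan branching and 4 of 20 ganglioside probe sets. Of 10 N-glycan branching probe sets 2 were higher, Man1a, a mannosidase that trims the early chain (1.13, SE 0.27, limma adjusted p = 0.0427), and Mgat2, which starts a branch (1.13, SE 0.22, adjusted p = 0.0214). A brighter Man1a probe set was not called. Of 20 ganglioside probe sets 2 were higher, B4galnt1, which makes complex gangliosides (0.87, SE 0.20, adjusted p = 0.0339), and Psap, the precursor of lysosomal activators of glycolipid breakdown (1.06, SE 0.19, adjusted p = 0.0183). The called Psap probe set measured 11.50 to 11.67 in WT, 10.08 to 10.72 in KO and 11.18 to 12.06 in MT tumors. The MT tumors thus lay with the WT tumors, and its MT minus KO difference was 1.17 (SE 0.19, limma adjusted p = 0.109). Another Psap probe set was not called between WT and KO tumors (0.47, SE 0.17, limma adjusted p = 0.119). The MT minus KO difference of that probe set was 0.49 (SE 0.17, limma adjusted p = 0.376).

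Of 21 probe sets for selectins, sialic acid receptors and the proteins that carry such glycans, 2 were higher in WT than in KO tumors. They were Podxl, a sialylated surface mucin (1.06, SE 0.27, limma adjusted p = 0.0498), and Muc13, a membrane mucin (0.44, SE 0.11, adjusted p = 0.0432). Both calls were lost in most settings, 16 and 18 of 22. Of the 21 probe sets, 3 had an unadjusted p under 0.05, against 23.9% of all, and 2.64% of all were called higher. The lists for the other 9 sialyltransferase genes (14 probe sets), for sialic acid modification (7) and for fucosylation (8) held 0 calls in each comparison, and at an unadjusted p under 0.05 they held 0 of 14 in each comparison, 0, 2 and 0 of 7, and 0, 1 and 1 of 8 (WT with KO, MT with KO, MT with WT).

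**Figure D5:**
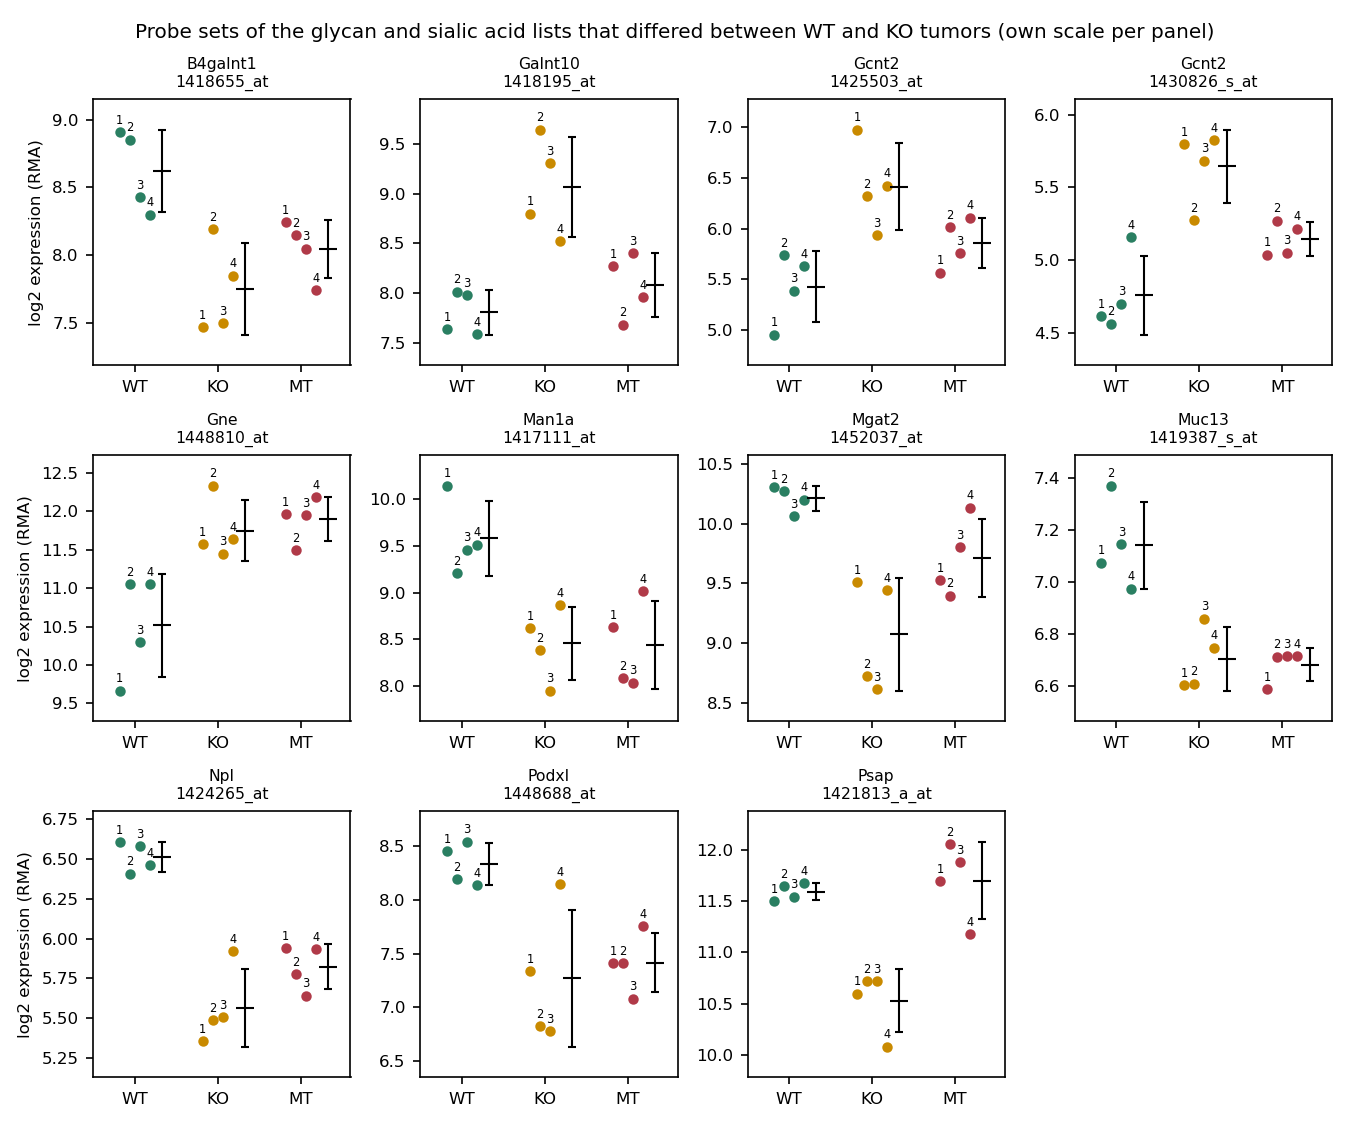
Log2 expression of the 11 probe sets of sialic acid and glycan genes that passed between WT and KO tumors (vertical axes, each panel on its own scale) in each tumor, with its number in the genotype beside each point. Horizontal bars are means and vertical lines the SD (n = 4). Npl shows the most even split, with WT at 6.41 to 6.61 and all other tumors at 5.35 to 5.94, and for Psap the MT tumors, at 11.18 to 12.06, lie with the WT tumors.

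The call between WT and KO tumors was lost in 10 of 21 settings for Man1a, 9 of 22 for B4galnt1, 9 of 21 and 4 of 20 for Gcnt2 at 1425503_at and 1430826_s_at, 5 of 22 for Mgat2, 4 of 22 for Galnt10 and 2 of 21 for Psap. Between WT and KO tumors the poly-A block and the fit without MT4 gave the same values, so all these tallies count that result as 2 settings. A setting that left a probe set out is not in its tally, as with the dim filter at Npl and both Gcnt2 probe sets. How many of the 11 calls held depended on single tumors: 2 remained without WT1, 1 without WT3 and 4 without KO3, and 4 remained when only the 8 tumors compared were fitted. The count over all probe sets, 1035, fell too: to 269 without WT1, 196 without WT3, 401 without KO3 and 374 in the fit to 8 tumors.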

How the data were processed

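RNA from frozen tumor sections was hybridized to 1 array per tumor. The deposited values are on the log2 scale, and the study's methods state that the authors collated the intensity files by RMA (background correction, quantile normalization and probe set summary), which compresses differences of dim probe sets. Both RMA and MAS5 appear in the submitters' notes, which do not say which of them gave this table. Neither intensities nor detection calls were analysed here, and precision is limited by the number of arrays.

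Of 22690 probe sets, 64 controls were left out. The platform annotation gave 20380 of the 22626 tested a single symbol, 691 several and 1555 none. Probe sets of Trp53 were named from the study's supplementary gene list. Group means were fitted over 12 tumors by lmFit and eBayes of limma 3.58.1 under R 4.3.3, which leaves 9 residual degrees of freedom. Tests were 2-sided, p-values were adjusted by Benjamini-Hochberg across the 22626 probe sets, and 0.05 was the threshold. The steps were tested on simulated data. SAM, used in the study, was not run.

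The text names all sialyltransferase probe sets, the 5 genes nearest to St3gal6 (1 probe set per gene) and the called members of each glycan list, at most 4 per list and comparison. Members and lists were chosen with earlier results of these data known. The marker lists cover the cell types named, with fibroblasts, basal and myoepithelial cells, adipocytes, skeletal muscle and Schwann cells and nerve, which held 0 limma calls in each comparison, as did luminal epithelium, granular ducts and B and plasma cells, with 0 to 6 probe sets of a list at an unadjusted p under 0.05. Promoter windows and chromosomes came from RefSeq (GRCm38.p6). Results were recomputed with dim probe sets left out, centering, cyclic loess, fits to 8 tumors, trend and robust moderation, array weights, other thresholds, 1 probe set per gene, the methods' t-test, blocks for the poly-A split and the tumor number, and each tumor left out. Tables and figures used Python 3.11.15, pandas 2.3.3 and matplotlib 3.10.9.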

Additional observations from a re-analysis of the deposited data

Results flagged for a closer look

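A single tumor lay far from the other 3 of its genotype in 4 of 51 groups of sialyltransferase values, where chance flags about 1 in 20 groups. St6galnac2 at 1417617_at stood at 4.28 in KO4, a dim probe set that gave 4.42 to 4.43 in KO1 to KO3. St3gal2 at 1421890_at was 5.33 in WT1 and 5.67 to 5.73 in the other WT tumors. At 1421892_at of the same gene MT4 was 5.17, beside 5.32 to 5.33 in the other MT tumors, which are those with high poly-A controls. St3gal3 at 1450406_a_at was 6.67 in MT1 and 7.07 to 7.10 in the other MT tumors.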

How the results depend on the processing

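The number of sialyltransferase probe sets called, 0 between WT and KO tumors, was 2 with array weights (both of St3gal5), 1 at an adjusted p under 0.1 (St3gal1) and 0 to 1 with single tumors left out (St3gal1 without WT4). Between MT and WT tumors it was 3 with array weights (St3gal5 and 2 of St3gal2) and 0 to 1 with single tumors left out (St3gal2 at 1421891_at without MT4), and between MT and KO tumors it was 0 in every alternative run. The cause of these changes was not tested. Array weights called 14.5% of all probe sets between WT and KO tumors and 22.0% between MT and WT tumors. The MT minus KO difference of St3gal6 at 1449079_s_at, 0.02, turned to -0.0198 with cyclic loess and -0.72 with the poly-A block, and ran from -0.12 to 0.27 with single tumors left out. Against WT tumors the described St3gal6 differences ran, over centering, cyclic loess, each probe set alone and single tumors left out, from 3.00 to 3.87 (WT minus KO) and from -4.21 to -3.26 (MT minus WT), the latter being -4.84 and -4.01 at the 2 probe sets within the poly-A split. Over 22 alternatives the sign turned in some alternative for 7 of 15, 10 of 17 and 8 of 15 member differences (WT minus KO, MT minus KO, MT minus WT), and for none of the 5, 2 and 4 with an unadjusted p under 0.05. Several of these alternatives change the p-value and leave the difference as it was, as does leaving out a tumor of the genotype not compared. In those the sign could not turn. Tumor numbers were not taken as pairs. Of 12 same-numbered pairs 6 correlated above 0.1 (0.00 to 0.33), and 6 of 12 tumors correlated best with their own number. No chance level was computed for these values, so they do not decide whether the numbers pair tumors. With a replicate block 0 members were called in each comparison and 7 of the 11 glycan calls between WT and KO tumors remained. Over all probe sets the count between WT and KO tumors, 1035 (597 higher and 438 lower), was 196 without WT3, 269 without WT1, 374 (170 and 204) in the fit to 8 tumors, 10 by the methods' t-test, 603 (256 and 347) without dim probe sets and 1242 (846 and 396) with centering.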
